A study of Mus musculus with 96 samples.

Results

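The NR4A nuclear receptors were described in single cells of the mouse embryo. The group has 3 members, Nr4a1 (Nur77), Nr4a2 (Nurr1) and Nr4a3 (Nor1), and they were taken by symbol from a table of 19836 genes. All 3 were found and all 3 passed the minimum of 30 reads over all cells, which 15239 genes passed. They were chosen by their levels in earlier values of these same data, high in E11.5 cells and low in the fetal liver, and by their relation to Fos and Egr1 there, so both are described here and not tested. The study sorted 96 single cells from C57BL/6 embryos, 1 to a well. Precursors of haematopoietic stem cells (pre-HSCs) were taken at E11.5 from the aorta-gonad-mesonephros region (AGM, 48 cells) and from the yolk sac (16 cells), both with the gate Ter119-CD11b-CD144+c-kit+EPCR+. Haematopoietic stem cells (HSCs) came from the fetal liver at E12.5 (16 cells, gate Ter119-Sca-1+c-kit+EPCR+) and at E14.5 (16 cells, gate Ter119-Sca-1+c-kit+CD48-CD150+). Between the E11.5 groups and the livers, tissue, age and gate changed together and cannot be told apart. The labels name no treatment, no mutant allele and no animal or litter, so each group counts as 1 sample and no difference below has a replicate check.

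NR4A proteins are orphan nuclear receptors: they bind DNA through a zinc finger domain shared with the steroid receptors, but their ligand pocket is closed, so their activity is set largely by how much is made. Their genes are immediate-early genes, transcribed within minutes of a signal by factors already in the cell, among them CREB (activated by cyclic AMP), MEF2 and NFAT (calcium) and SRF (growth factors). As monomers they bind the NBRE element, and Nr4a1 and Nr4a2 can also pair with the retinoid X receptors. In blood stem cells the group is best known for restraining proliferation and myeloid expansion, and combined loss of Nr4a1 and Nr4a3 in mice leads to myeloid leukaemia.

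The promoters of the 3 genes are shown because all 3 genes were lower in both livers than in AGM, and because a shared feature of their promoters lies outside the measurements that chose them. All 3 matched a promoter in RefSeq (GRCm38.p6, the mm10 build). Capitals mark TGACG on either strand, the core of the cAMP response element (CRE) that CREB family factors bind, so that CGTCA is the same core read on the other strand. Each sequence reads 5′ to 3′ on the gene's strand and ends at the base before the RefSeq start, except that of Nr4a3, which stops where a first exon in GENCODE begins. The stretches are Nr4a1 at chr15:101266596-101266845 on the + strand, Nr4a2 at chr2:57124004-57124253 on the - strand and Nr4a3 at chr4:48045055-48045152 on the + strand.
Nr4a1: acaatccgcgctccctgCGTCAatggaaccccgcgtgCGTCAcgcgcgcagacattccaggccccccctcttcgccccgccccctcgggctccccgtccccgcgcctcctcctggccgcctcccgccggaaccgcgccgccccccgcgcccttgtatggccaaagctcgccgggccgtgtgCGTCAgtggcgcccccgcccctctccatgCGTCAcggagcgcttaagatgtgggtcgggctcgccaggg
Nr4a2: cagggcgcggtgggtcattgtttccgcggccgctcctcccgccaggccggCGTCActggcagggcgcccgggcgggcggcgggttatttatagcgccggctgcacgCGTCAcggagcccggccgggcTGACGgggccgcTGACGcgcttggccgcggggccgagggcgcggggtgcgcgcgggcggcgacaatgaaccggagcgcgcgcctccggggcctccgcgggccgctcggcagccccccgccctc
Nr4a3: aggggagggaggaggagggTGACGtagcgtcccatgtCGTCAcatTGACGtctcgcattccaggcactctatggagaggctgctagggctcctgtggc
Each gene had 4 such cores in the 250 bases before its RefSeq start, and the counts hold for these starts only. The Nr4a1 window lies within the gene's span in GENCODE, which begins at chr15:101254269. Counted from the start, those of Nr4a1 began at -233, -213, -69 and -40, and those of Nr4a2 at -200, -144, -123 and -111. Those of Nr4a3 began at -231, -213 and -205, and the fourth lies past the stretch shown, downstream of the gene's start in GENCODE. Of 32851 RefSeq promoters of the same length, 17.8% held at least 1 core and 0.137% (45 promoters) held 4 or more. The NR4A promoters are rich in G and C, at 74.4% for Nr4a1, 80.0% for Nr4a2 and 63.6% for Nr4a3. Among the 6582 promoters with at least 63.6% G and C, 0.38% held 4 or more cores. The full element TGACGTCA was in none of the 3 windows (1.55% of all promoters), nor was the NBRE AAAGGTCA (1.34%), the AP-1 motif TGANTCA (6.75%) or a CArG box, the SRF motif (1.47%). The EGR motif GCGGGGGCG was found 1 time, in Nr4a1 (2.57%), and TATAAA 1 time, in Nr4a2 (12.4%). The promoter of Fos, the immediate-early gene used for comparison below, held 2 TGACG cores. These are matches of letters on either strand within these windows, and the study has no binding data for them.

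Single cells had between 250235 and 1926882 reads and between 1011 and 11094 genes with a read. Summed by group, AGM had 60280645 reads, the yolk sac 22306075, the E12.5 liver 19053123 and the E14.5 liver 20585452. Levels are reads scaled to a common total of gene reads (CPM), either in 1 cell or pooled over a group, and pooled values carry exact 95% Poisson intervals. Shares of cells with a read carry exact Clopper-Pearson intervals. Reads without molecular identifiers are not independent molecules, so both kinds of interval cover counting error only. All 10 endothelial and all 10 haematopoietic markers had reads in the E11.5 groups. All 10 haematopoietic markers also had reads in both livers, where Kdr (E12.5) and Cldn5 (E14.5) were the endothelial markers at 0 reads.

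Nr4a1 was the most abundant NR4A gene per base of exon wherever more than 1 of them was read. Its identifier in the table is ENSMUSG00000023034.6, at chr15:101254269-101274795 on the + strand, and GENCODE M21 lists a later version of the same identifier. In AGM cells it ran from 0 CPM through a median of 238.1 CPM to 1936 CPM, with quartiles at 89.2 and 534.4 CPM. Yolk sac cells ran from 0 through 214.4 to 2432 CPM. A read was found in 43 of 48 cells of the AGM (89.6%, interval 77.3 to 96.5%) and in 15 of the 16 from the yolk sac. In E12.5 liver 4 of 16 cells had a read, with 93 reads in cell 2, 3 in cell 1 and 1 each in cells 7 and 10. In E14.5 liver 3 of 16 cells had a read, with 91 in cell 1, 30 in cell 9 and 1 in cell 3. The highest liver cell, at 63.4 CPM, was thus below the lower quartile of AGM cells but above the lower quartile of yolk sac cells (41.7 CPM), so the groups overlapped in their lower part. Pooled levels were 372.6 CPM in AGM (367.8 to 377.5), 365.1 CPM in the yolk sac (357.3 to 373.2), 5.14 CPM in the E12.5 liver (4.18 to 6.27) and 5.93 CPM in the E14.5 liver (4.92 to 7.08). The intervals overlapped within E11.5 and within the livers, and not between them. Single cells set both liver values: without cell 2 the E12.5 level was 0.291 CPM, and without cell 1 the E14.5 level was 1.62 CPM. Cell 8 held 29.2% of the yolk sac's reads.

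Nr4a2, a receptor best known for its part in dopamine neurons, was read in most E11.5 cells and in 2 of 32 liver cells. It lies at chr2:57106830-57124003 on the - strand (ENSMUSG00000026826.13). AGM cells ran from 0 through a median of 43.3 CPM to 640.7 CPM, and yolk sac cells from 0 through 22.7 to 174.3 CPM. A read was found in 39 of 48 cells of the AGM (81.3%, interval 67.4 to 91.1%) and in 12 of the 16 from the yolk sac. No E12.5 liver cell had a read, which leaves a share of up to 18.75% possible by the limit of 3 counts in 16, or 20.6% by the exact interval. E14.5 liver had 9 reads in all, 8 in cell 4 and 1 in cell 16, and its highest cell was at 4.15 CPM. Pooled levels were 111.2 CPM in AGM (108.6 to 113.9), 49.8 CPM in the yolk sac (46.9 to 52.8), 0 in the E12.5 liver and 0.437 CPM in the E14.5 liver, where the level without cell 4 was 0.0536 CPM. The yolk sac and AGM intervals did not overlap, but the ranges of their cells did.

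Nr4a3, which pairs with no retinoid X receptor, was read in the fewest cells. It lies at chr4:48045153-48086447 on the + strand (ENSMUSG00000028341.9). In AGM it was read in 19 of 48 cells (39.6%, interval 25.8 to 54.7%), with a median of 0 CPM and a highest cell of 332.7 CPM. In the yolk sac 3 of 16 cells had a read, with 122 reads in cell 14, 100 in cell 15 and 3 in cell 2. Neither liver had a read in any of its 16 cells, with the same limits of 18.75% and 20.6% in each. Pooled levels were 21.4 CPM in AGM (20.3 to 22.6) and 10.1 CPM in the yolk sac (8.81 to 11.49). Without cell 14 the yolk sac level was 4.80 CPM, and without cell 15 it was 5.98 CPM.

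**Figure D1:**
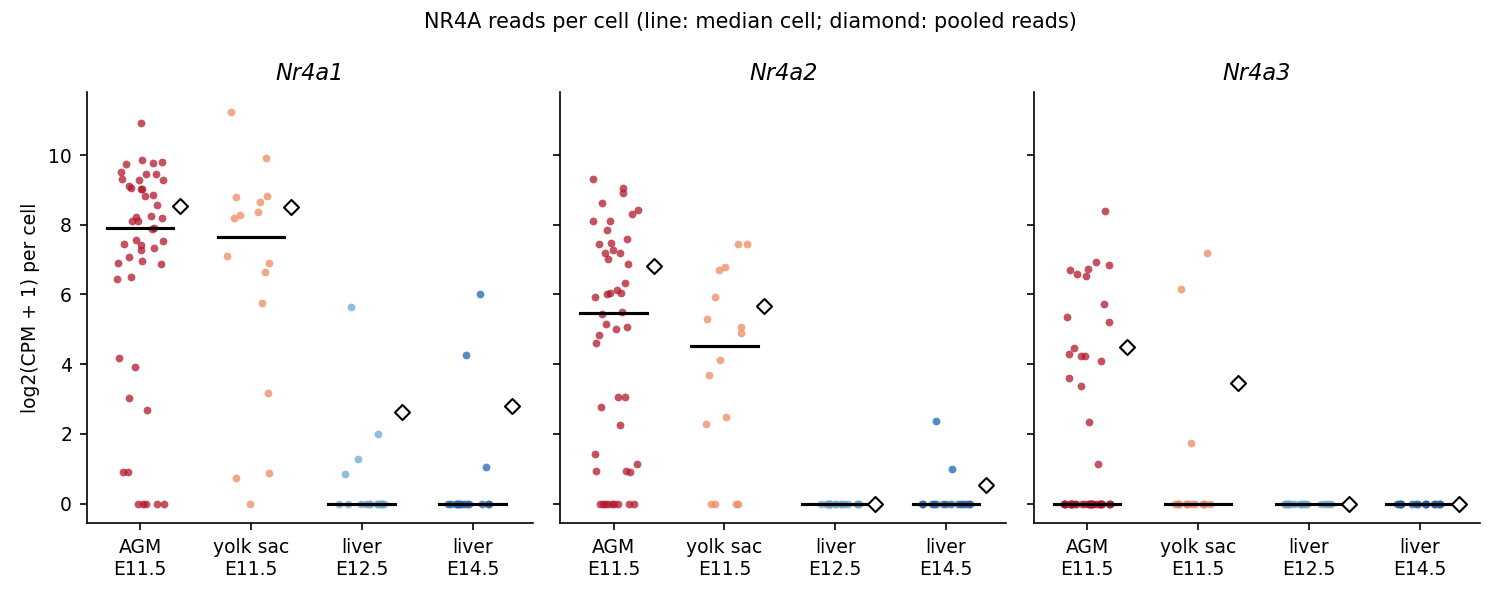
Each point is 1 cell, with the level on the y axis as log2(CPM + 1) and the 4 groups (48, 16, 16 and 16 cells) on the x axis. Black lines are medians over cells and diamonds are the level of the pooled reads. The medians of Nr4a1 and Nr4a2 lie well above 0 in both E11.5 groups and at 0 in both livers, where a few single cells carry the reads.

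Counted per kilobase of annotated exon, so that genes can be compared, the order within E11.5 was the same in both tissues. In AGM pooled levels were 106.2 CPM per kb for Nr4a1, 27.4 for Nr4a2 and 3.58 for Nr4a3. Nr4a1 was thus 3.87 times Nr4a2, and Nr4a2 was 7.66 times Nr4a3. In the yolk sac the levels were 104.1, 12.3 and 1.68 CPM per kb, and Nr4a1 was 8.48 times Nr4a2. Of all NR4A reads, Nr4a2 supplied 22.02% in AGM and 11.7% in the yolk sac. Fos, the AP-1 subunit that serves as the standard immediate-early marker, was at 163.3 CPM per kb in AGM, 1.54 times Nr4a1. In the livers this balance differed, with Fos at 21.6 times Nr4a1 in E12.5 and 30.4 times in E14.5. Both ratios rested on single cells: the first was 424.3 without cell 2 and 6.39 without cell 14, and the second was 119.5 without cell 1.

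The yolk sac and AGM cells, of the same age and gate, were close for Nr4a1 and apart for Nr4a2. On the scale of log2(pooled CPM + 1), the yolk sac differed from AGM by -0.03 for Nr4a1, -1.14 for Nr4a2 and -1.02 for Nr4a3, beside a median of -0.20 over all 15239 genes. The sign for Nr4a1 was not stable: it was 0.065 with median-of-ratios scaling, and -0.46 without yolk sac cell 8. Leaving out any single cell kept Nr4a2 between -1.47 and -0.998 and Nr4a3 between -1.95 and -0.85, with the lowest Nr4a3 value reached without cell 14. None of the 3 genes was lower by 4-fold or more, a difference that 5.5% of all genes showed, and none was higher by as much, as 2.09% were. Both reference genes were higher, Fos by 0.14 and Egr1 by 1.30.

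Against AGM, both livers were lower in all 3 genes by 4-fold or more, the contrast for which the genes were chosen. Over all genes, 11.1% were lower by that much in the E12.5 liver and 10.7% in the E14.5 liver, and 5.72% and 5.43% were higher by it, against 0 of the members. Nothing is read from the members' count. For Nr4a1 the pooled level was 72.4-fold lower in the E12.5 liver (counting interval 59.4 to 89.3) and 62.9-fold lower in the E14.5 liver (52.6 to 75.7). For Nr4a2 it was at least 706.5-fold lower in the E12.5 liver, taking 3 reads over the group in place of 0, and 254.5-fold lower in the E14.5 liver (134.0 to 556.7). For Nr4a3 it was at least 136.0-fold lower in the E12.5 liver and at least 146.96-fold lower in the E14.5 liver. Least folds of this kind cover counting error of pooled reads only, not the spread between cells, and do not rank the livers. That of Nr4a2 in the E12.5 liver was 379.7 after thinning. On the scale of log2(pooled CPM + 1), Nr4a1 differed by -5.93 at E12.5 and -5.75 at E14.5, whereas Fos differed by -2.35 and -1.66, and Egr1 by -4.33 and -5.65. These comparisons share the AGM cells. Of the 7993 genes with at least 10 CPM in AGM, 0.288% had 0 reads in the yolk sac, 2.24% in the E12.5 liver and 3.5% in the E14.5 liver. Between the livers, the Nr4a1 level at E14.5 was 0.17 above that at E12.5 on the log2 scale, and this ran from -1.23 without E14.5 cell 1 to 2.42 without E12.5 cell 2. Shares of cells with a read were also taken after thinning cells to 690000 reads, which left out shallower cells, 5 in AGM, 0 in the yolk sac and 2 in each liver. Nr4a1 was then read in 90.7% of the 43 AGM cells kept, 93.75% of the 16 yolk sac cells and 21.4% of the 14 cells kept in each liver.

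The genes were largely nested within AGM cells. Every AGM cell with Nr4a3 also had Nr4a1 and Nr4a2 (19 cells), and 19 others had Nr4a1 and Nr4a2 without Nr4a3. Of the 48 cells, Nr4a1 was read in 43 and Nr4a2 in 39, and the overlap that such shares alone would give was not computed. Nr4a1 alone was read in 5 cells, Nr4a2 alone in 1 (cell 39, at 116.4 CPM) and none in 4 cells. In the yolk sac 2 cells had all 3 genes, 10 had Nr4a1 with Nr4a2, 1 had Nr4a1 with Nr4a3, 2 had Nr4a1 alone and 1 had none. No liver cell had reads of more than 1 NR4A gene, with Nr4a1 read in 7 of the 32 and Nr4a2 in 2. In E12.5 liver 4 cells had Nr4a1 alone and 12 had none. In E14.5 liver 3 cells had Nr4a1 alone, 2 had Nr4a2 alone and 11 had none. Over the AGM cells, reads per cell had a Spearman correlation (rho) of 0.32 with Nr4a1, 0.14 with Nr4a2 and 0.11 with Nr4a3, and the part of depth in the nesting was not tested.

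**Figure D2:**
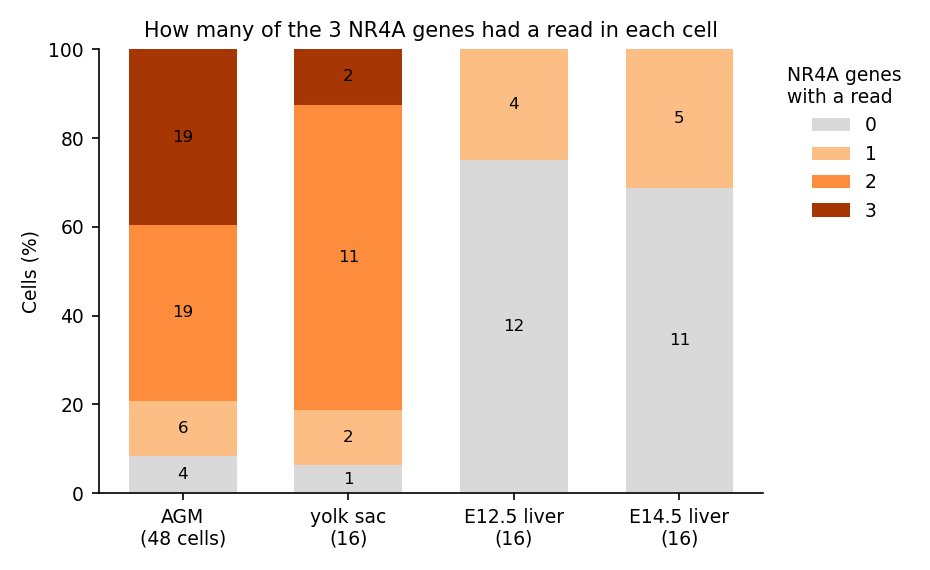
Bars give the percentage of cells in each group (y axis) with reads of 0, 1, 2 or all 3 NR4A genes, and numbers in the bars are cells. In AGM 38 of 48 cells had at least 2 of the genes, and in the livers no cell did.

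Across the 48 AGM cells the members also tracked each other in level. Spearman's rho was 0.60 between Nr4a2 and Nr4a3, 0.44 between Nr4a1 and Nr4a2, and 0.40 between Nr4a1 and Nr4a3. For the first pair it was 0.56 over the 19 cells with reads of both, while for Nr4a1 and Nr4a2 it was 0.20 over the 38 cells with both. Over the 16 yolk sac cells the values were 0.17, 0.53 and 0.23. All of these are descriptions of cells that share a source, a library preparation and a range of depth.

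Nr4a1 and the other members differed in how they stood to Fos and Egr1 in the same AGM cells. Egr1 encodes a zinc finger factor that is, like Fos, induced through SRF. Nr4a1 had a rho of 0.42 with Fos and 0.44 with Egr1, close to the 0.43 between Fos and Egr1 themselves. For Nr4a2 the values were 0.12 with Fos and 0.15 with Egr1, and for Nr4a3 they were 0.10 and 0.18. Set among 4839 genes read in at least 50% of AGM cells, 39 genes (0.81%) had a higher rho with Nr4a1 than Fos had, and 32 (0.66%) a higher one than Egr1. For Nr4a2, 26.8% of genes were above Fos and 20.8% above Egr1, and for Nr4a3 31.3% and 15.3% were. These shares place a relation by which the members were chosen and are not a test of it. Reads per cell moved with Nr4a1 (0.32) and with Fos (0.43), and with reads held fixed the rho of Nr4a1 with Fos was 0.33. Over the 36 cells with reads of both, it was 0.29 for Nr4a1 with Fos and 0.28 for Nr4a1 with Egr1. Among the other members, over cells with reads of both, Nr4a2 with Egr1 came to -0.19 and Nr4a3 with Fos to -0.061. Nr4a2 with Fos came to 0.16 (32 cells) and Nr4a3 with Egr1 to 0.20 (18 cells), so their signs held. Over yolk sac cells rho was 0.31 for Nr4a1 with Fos and 0.36 with Egr1, and for Nr4a2 0.19 and -0.01.

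**Figure D3:**
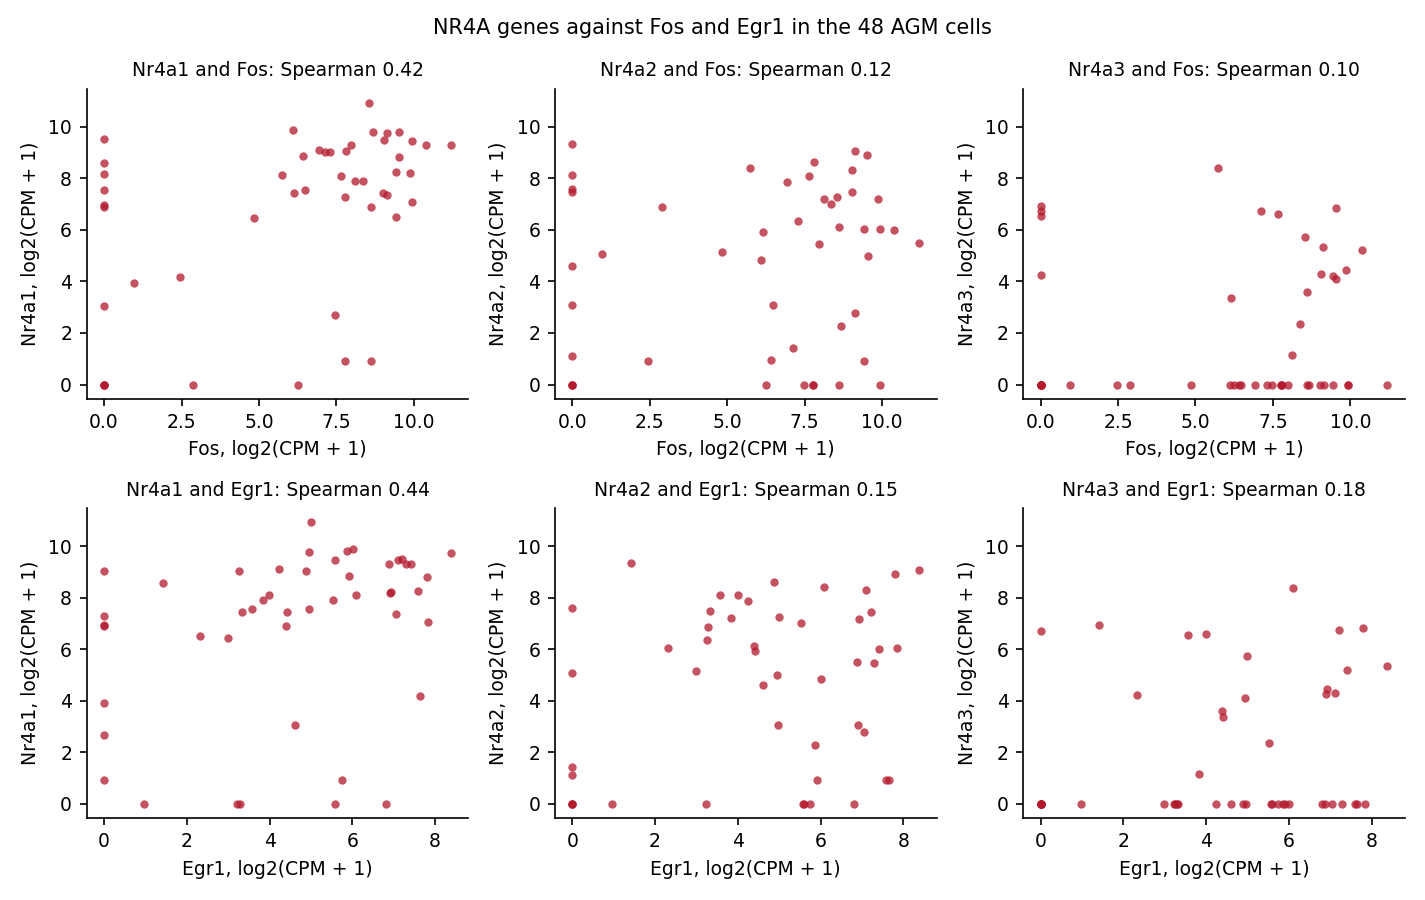
Each point is 1 of the 48 AGM cells, with Fos (upper row) or Egr1 (lower row) on the x axis and an NR4A gene on the y axis, all as log2(CPM + 1). The Spearman value above each panel is highest for Nr4a1 (0.42 and 0.44), and cells with high Nr4a2 or Nr4a3 occur both with and without Fos reads.

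In the livers Fos was often read where NR4A genes were not. Of 12 liver cells with Fos, 3 had Nr4a1, close to the 7 of all 32 liver cells. In AGM 36 of 38 cells with Fos had Nr4a1, beside 43 of all 48. In E12.5 liver, cell 14 had 1002 Fos reads and cell 4 had 360, and neither had a read of any NR4A gene. Cell 1, with 57 Fos reads, had 3 of Nr4a1. In E14.5 liver, cell 8 had 715 Fos reads, cell 13 had 599 and cell 5 had 436, all with 0 NR4A reads, while cell 9 had 568 Fos reads beside 30 of Nr4a1 and cell 4 had 85.6 CPM of Fos beside 8 reads of Nr4a2. The E14.5 cell with the most Nr4a1 reads, cell 1 with 91, had 1 Fos read. Of the Fos reads, the top cell held 70.5% at E12.5 and 28.8% at E14.5, against 94.9% and 74.6% for Nr4a1, and in neither liver was it the same cell for both genes.

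Genes whose levels ran most like each member over AGM cells were listed from the same 4839 genes, of which the middle 90% had a rho between -0.25 and 0.30 with Nr4a1. Closest to Nr4a1 were Nop53 (0.62), Stxbp2 (0.57), Rasgef1b (0.56), Tagln2 (0.54), Junb (0.53) and Coq10b (0.53). Junb encodes an AP-1 subunit, and its rho was 0.11 with Nr4a2 and 0.06 with Nr4a3. Closest to Nr4a2 were Plaur (0.63), Cebpb (0.59), Crem (0.59), Nop53 (0.57) and Ctla2a (0.56). Plaur, Cebpb and Crem also ran with Nr4a1, at 0.50, 0.49 and 0.51, and with Nr4a3, at 0.59, 0.49 and 0.36. Crem encodes a CREB family factor that binds the cAMP response element, and Plaur the urokinase receptor. Closest to Nr4a3 were Plaur (0.59), B3gat3 (0.55), Nop53 (0.54), Prrc1 (0.53), Tcirg1 (0.53) and Elp3 (0.52). Nop53, a ribosome assembly factor, was therefore on all 3 lists, and Plaur on 2. Some of these genes also shared the group pattern. Pooled Rasgef1b was 126.6 CPM in AGM, 159.7 in the yolk sac, 1.42 in the E12.5 liver and 5.15 in the E14.5 liver. Crem went from 138.97 CPM in AGM to 31.1 in the yolk sac, 8.14 in the E12.5 liver and 12.9 in the E14.5 liver. Stxbp2 did not, at 198.4, 272.5, 303.7 and 297.4 CPM.

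**Figure D4:**
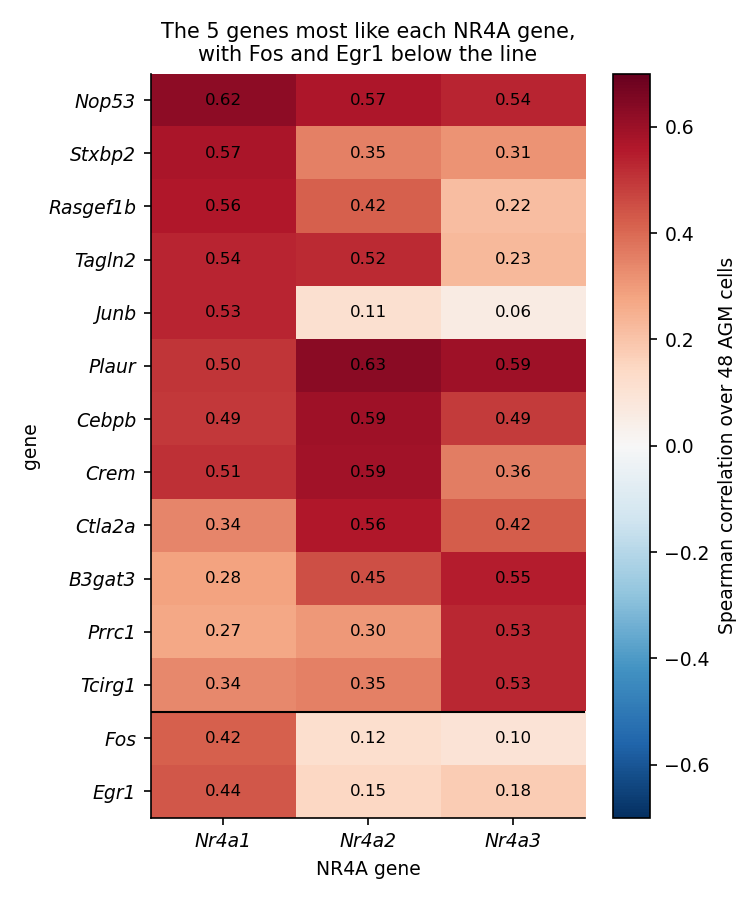
Rows are the 5 genes with the highest Spearman correlation with each NR4A gene over 48 AGM cells, with Fos and Egr1 below the line, and the colour and number give the correlation with the gene in the column. Junb is at 0.53 with Nr4a1, 0.11 with Nr4a2 and 0.06 with Nr4a3. Crem is at 0.51 with Nr4a1, 0.59 with Nr4a2 and 0.36 with Nr4a3.

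Other immediate-early genes were low in the liver too, and some were as low as the NR4A genes. Since those were chosen for this contrast, their place beside the lists is a description only. Of the 12 AP-1 and Egr genes, 9 were lower by 4-fold or more in the E12.5 liver than in AGM and 8 in the E14.5 liver, none was higher by that much, and the median log2 ratio was -2.64 in both (-4.34 and -4.24 with genes at 0 reads set to their bound), beside -0.20 and -0.23 over all genes. Atf3, a stress-induced partner of AP-1 factors, was at 87.0 CPM in AGM and 43.8 in the yolk sac and had 0 reads in both livers, at least 552.7-fold and 597.2-fold lower. Fosb was at 55.0 CPM in AGM, 19.4 in the yolk sac, 0.105 in the E12.5 liver and 0 in the E14.5 liver. Of 33 further immediate-early genes, 16 were lower by 4-fold in each liver, with 1 higher at E12.5 and 0 at E14.5, and a median of -1.96 in both. Among them Cyr61 was at 99.6 CPM in AGM and 5.83 in the yolk sac, and Socs3, a feedback inhibitor of cytokine signalling, at 20.4 and 9.37, and both had 0 reads in the livers. In the yolk sac 0 of the 12 AP-1 and Egr genes and 4 of the 33 others were lower by 4-fold, with medians of -0.64 and -0.50. Over AGM cells the summed AP-1 and Egr level had a rho of 0.62 with Nr4a1, 0.25 with Nr4a2 and 0.30 with Nr4a3. The sum includes Fos and Egr1, so in part it repeats the relation by which the members were chosen. Of 13 heat shock genes, which cell handling and other stress can induce, 3 were lower by 4-fold in each liver (medians -0.65 and -0.92) and 1 in the yolk sac (median 0.12). Hspa1a and Hspb1 had 0 reads in both livers, against 5.11 and 14.8 CPM in AGM. Over AGM cells the summed heat shock level had a rho of 0.20, 0.11 and 0.14 with Nr4a1, Nr4a2 and Nr4a3. Most of the pooled sum of 11946 CPM in AGM was Hspa8 (4922 CPM), Hsp90ab1 (3667) and Hsp90aa1 (1302). It therefore says little on genes such as Hspa1a and Hspb1. The part of heat shock genes in the NR4A levels was not tested.

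Genes of the signalling routes known to act on NR4A genes had medians nearer to that of all genes. Of 24 cAMP and CREB genes, 6 were lower and 2 higher by 4-fold in the E12.5 liver (median -0.45), 5 and 1 in the E14.5 liver (-0.25), and 1 and 1 in the yolk sac (-0.07, which turned to 0.023 with median-of-ratios scaling). Within the list, Crem was lower by 3.94 on the log2 scale in the E12.5 liver, and Pde4d, a phosphodiesterase that breaks down cAMP, was higher by 2.64, at 163.9 CPM against 25.5 in AGM. Over AGM cells the list's summed level had a rho of 0.52 with Nr4a2 and of 0.32 with both Nr4a1 and Nr4a3. Most of that sum in AGM was Rgs2 (855.4 CPM), Gnas (784.1), Prkar1a (538.3) and Atf4 (368.5). It also includes Crem, named above for its high rho with Nr4a2 in the same cells. Of 14 calcium, MEF2 and NFAT genes, 3 were lower in the E12.5 liver, 2 in the E14.5 liver and 1 in the yolk sac, with 0 higher and medians of -0.99, -0.43 and -0.36. Mef2a was at 28.96 CPM in AGM, 30.3 in the yolk sac, 0.840 in the E12.5 liver and 13.9 in the E14.5 liver, and Nfatc1 at 30.9, 25.1, 1.84 and 2.38. Of 13 serum response and ERK genes, 3 were lower in the E12.5 liver, 4 in the E14.5 liver and 0 in the yolk sac, with medians of 0.09, -0.52 and -0.31. Those lower in the E12.5 liver were Srf (-2.21), Kdr (-5.32) and Flt1 (-2.20), and Kdr is counted again among the endothelial markers below. Srf itself was at 24.2 CPM in AGM, 14.1 in the yolk sac, 4.46 in the E12.5 liver and 0.680 in the E14.5 liver.

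Partners and downstream genes were mixed. Of 14 partners and co-regulators, 2 were lower and 2 higher by 4-fold in the E12.5 liver (median -0.18), 1 and 0 in the E14.5 liver (-0.34), and 1 and 1 in the yolk sac (-0.02, and 0.065 with median-of-ratios scaling). The retinoid X receptor gene Rxra was at 3.85 CPM in AGM, 19.8 in the yolk sac, 20.3 in the E12.5 liver and 0 in the E14.5 liver. Its reads came from few cells, 7 in AGM, 2 in the yolk sac and 3 in the E12.5 liver. Of 14 genes reported downstream of NR4A receptors, 3 were lower in the E12.5 liver, 4 in the E14.5 liver and 4 in the yolk sac, with 0 higher and medians of -0.73, -0.69 and -0.14. Cdkn1c, an inhibitor of the cell cycle, was at 437.0 CPM in AGM, 105.8 in the yolk sac, 93.7 in the E12.5 liver and 103.8 in the E14.5 liver. Cebpb, a myeloid transcription factor, was at 214.8 CPM in AGM and 26.9 in the yolk sac. Of 45 other nuclear receptor genes listed, 28 were used, the rest having fewer reads than the minimum or not being analysed here. Of the 28, 2 were lower and 3 higher by 4-fold in the E12.5 liver, 4 and 1 in the E14.5 liver and 1 and 2 in the yolk sac (medians -0.78, -0.78 and -0.75).

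Proliferation and cell type genes were measured beside the members. Of 24 proliferation genes, 2 were lower and 1 higher by 4-fold in the E12.5 liver, 0 and 1 in the E14.5 liver and 0 and 0 in the yolk sac, with medians of -0.03, 0.71 and 0.47. Over AGM cells their summed level had a rho of 0.22 with Nr4a1 and -0.19 with both Nr4a2 and Nr4a3. Of the 10 endothelial markers, 4 were lower in the E12.5 liver, 3 in the E14.5 liver and 0 in the yolk sac (medians -1.35, -1.38 and -0.92). Summed over the list, single cells ran from 311.8 to 10715 CPM in AGM, from 97.0 to 2624 in the yolk sac, from 7.99 to 3196 in the E12.5 liver and from 293.3 to 2764 in the E14.5 liver. Most of the pooled E12.5 sum of 1665 CPM was Egfl7 (919.1 CPM) and Esam (422.1), which were at 771.9 and 398.0 in AGM. Cdh5 and Cldn5 were at 3.52 and 0.105 CPM in the E12.5 liver, against 48.5 and 178.4 in AGM. Of the 10 haematopoietic markers, 1 was lower in the yolk sac, 1 in the E12.5 liver and 0 in the E14.5 liver (medians 0.16, -0.07 and -0.11). Over AGM cells the endothelial sum had a rho of 0.19, 0.11 and 0.08 with Nr4a1, Nr4a2 and Nr4a3, and the haematopoietic sum 0.29, 0.10 and 0.13. Markers of other cells also differed between groups, and their part in the NR4A levels was not tested. Summed erythroid markers were at 72.4 CPM in AGM, 84.6 in the yolk sac, 919.4 in the E12.5 liver and 28633 in the E14.5 liver. A few cells set the last value, since the median cell was at 27.5, 33.6, 586.7 and 245.9 CPM and the highest E14.5 cell at 227928 CPM. Summed macrophage markers were at 719.8, 372.9, 1125 and 717.4 CPM. Their median cell was at 512.7, 364.2, 833.1 and 597.9 CPM, and the highest E12.5 cell at 26991 CPM. Summed mesenchymal markers were at 32.7, 28.4, 2.68 and 0.0486 CPM. Hepatocyte markers were at 64.5, 108.4, 29.7 and 37.9 CPM, and megakaryocyte markers at 352.0, 203.8, 152.2 and 55.8. Trf was most of the hepatocyte sum in AGM (58.3 CPM) and the E12.5 liver, and all of it in the E14.5 liver. In the yolk sac Afp (48.2 CPM) was above Trf. Vwf was most of the megakaryocyte sum in AGM (233.1 CPM). Where 1 gene made up most of a sum, the sum says little on the other genes of its list.

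**Figure D5:**
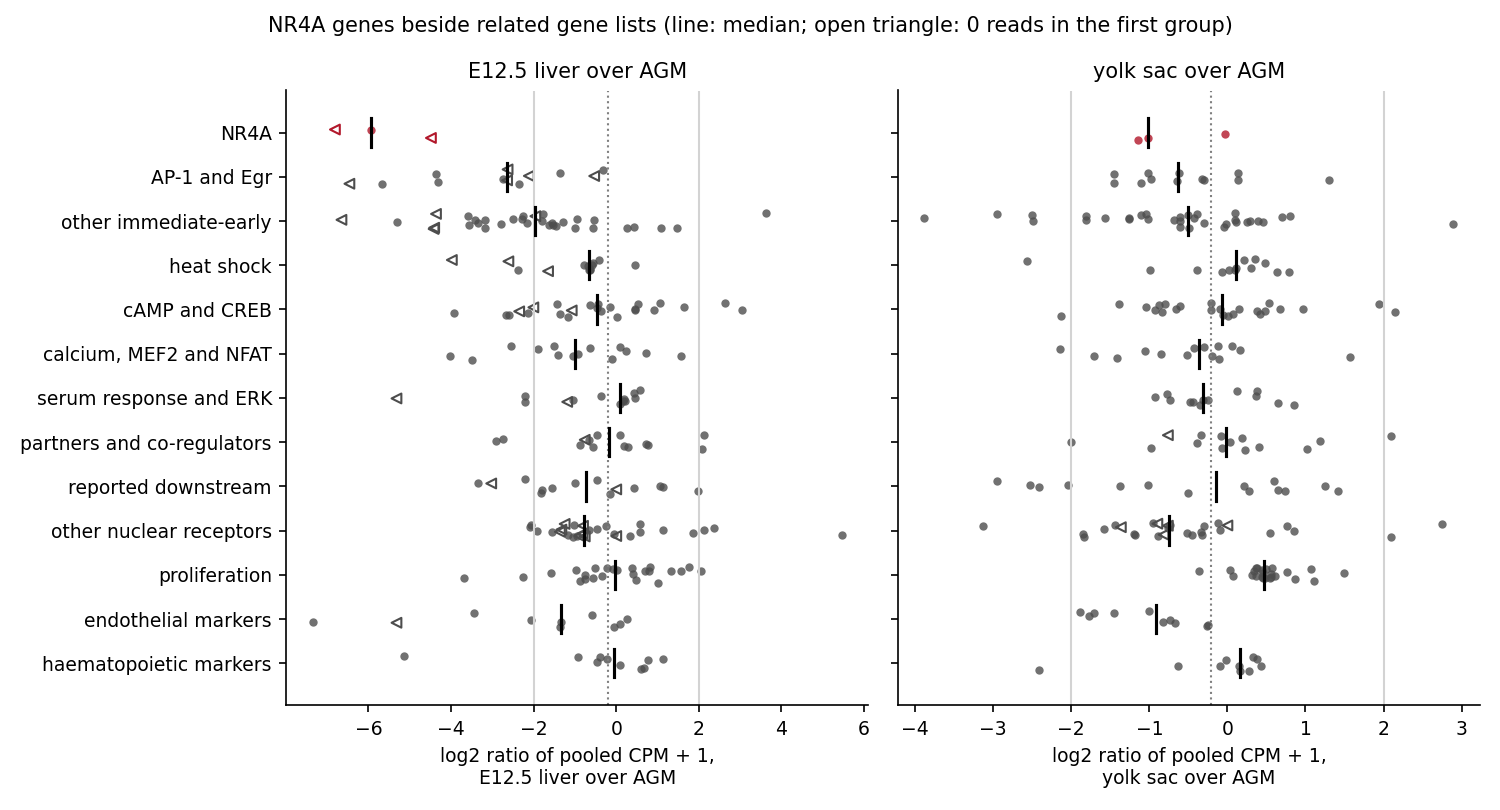
Points are genes, rows are the NR4A genes and the related lists, and the x axis is the log2 ratio of pooled CPM + 1 in the E12.5 liver (left) or yolk sac (right) over AGM. Black bars are list medians, the dotted line is the median of all genes, grey lines mark 4-fold, and open triangles are genes with 0 reads in the liver or yolk sac. On the left the NR4A genes, chosen for this contrast, lie past -4, as do Atf3 (-6.46), Fosb (-5.66), Fosl2 (-4.36) and Egr1 (-4.33) of the AP-1 and Egr list, whose median is -2.64.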

How the data were processed

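RNA of 96 single mouse embryo cells was measured by plate-based sequencing, with cDNA from a SMART-Seq kit, transposome tagging and 12 PCR cycles, per the labels' protocols. The authors deposited whole-number read counts per gene with a column per cell. The submitters' processing notes name FastQC, Trimmomatic 0.36, STAR, HTSeq and mm10, and the annotation and strand setting are not given in the sources used here. Each column's name gave its sample. Rows sharing a symbol (113 of 19949) were summed. Reads were pooled by group and scaled to CPM, and ratios used log2(CPM + 1) without a test, because each group is 1 sample. Exon lengths came from GENCODE M21 and promoters from RefSeq (GRCm38.p6). Python 3.11.15, numpy 2.4.6, pandas 2.3.3 and scipy 1.17.1 were used, and the calculation was tested on simulated counts. The genes named are the members, Fos and Egr1, at most 4 genes per list with the largest E12.5 over AGM ratio, and the 6 genes most correlated with each member over AGM cells, without predicted, mitochondrial, ribosomal protein and sex-linked genes. A gene that this rule names is not reported here. The members and lists were chosen with earlier results of these data known. Alternatives were other added CPM, scaling, cell filters, thinning and leaving out each cell. Holding reads per cell fixed, AGM cells 1 to 16 only for ratios, and leaving out cells for Fos over Nr4a1 were chosen after seeing the data.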

Additional observations from a re-analysis of the deposited data

How the results depend on the processing

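No paired analysis was possible because the labels pair no cells between groups and no result comes from a test. Where values moved by more than the counting error or changed sign, the cause was not tested unless the setting itself fixes it, as when fewer reads raise the floor. Yolk sac over AGM, Nr4a1 was 0.13 with the mean of cells' CPM, 0.065 with median-of-ratios scaling, 0.061 thinned, -0.079 with AGM cells 1 to 16, and -0.46 to 0.12 leaving out single cells. Nr4a2 was -1.02 with 10 CPM added, -1.05 with median-of-ratios scaling, -1.32 thinned, -1.32 with AGM cells 1 to 16, and -1.47 to -0.998 without single cells. Nr4a3 was -0.65 with 10 CPM added, -0.45 thinned, and -1.95 to -0.85 without single cells. E12.5 liver over AGM, Nr4a1 was -4.66 with 10 CPM added, -6.30 with the mean of cells' CPM, -6.38 thinned, and -8.18 to -5.78 without single cells. The least fold there was, for Nr4a2, 379.7 thinned, 798.0 with AGM cells 1 to 16 and 636.5 to 727.9 without single cells, and for Nr4a3 63.8, 156.2 and 120.2 to 140.4. E14.5 liver over AGM, with 10 CPM added, Nr4a1 was -4.59 and Nr4a2 -3.54. Without single cells they ran from -7.16 to -5.61 and from -6.74 to -6.14. For Nr4a3 the least fold was 63.8 thinned, 168.8 with AGM cells 1 to 16 and 129.9 to 151.7 without single cells. E14.5 over E12.5 liver, Nr4a1 was 0.63 thinned and -1.23 to 2.42 without single cells. Over AGM cells with reads of both genes, rho was -0.19 for Nr4a2 with Egr1, -0.061 for Nr4a3 with Fos, 0.28 for Nr4a1 with Egr1 and 0.20 for Nr4a1 with Nr4a2. With reads per cell held fixed it was 0.064 for Nr4a2 with Fos and 0.053 for Nr4a3 with Fos, whose Pearson value was 0.033. Without the 2 cells farthest from the median it was 0.095 for Nr4a2 with Egr1 and 0.19 for Nr4a3 with Fos. Leaving out single cells, these last ran from 0.094 (without cell 19) to 0.19 and from 0.056 (without cell 43) to 0.16 (without cell 45). In yolk sac over AGM, list medians turned to 0.023 (cAMP and CREB) and 0.065 (partners) with median-of-ratios scaling, and to 0.091 (reported downstream) with no minimum of reads. With 10 CPM added, 0.164% of genes were lower by 4-fold in the yolk sac, 0.86% in the E12.5 liver and 0.879% in the E14.5 liver. Among these ratios and correlations 102 alternative values stayed close (ratios within counting error, correlations within 1.5 times), 40 moved and 7 reversed. The number of cells limits the 0 counts: 16 cells without a read allow a share of up to 18.75% (3 counts) or 20.6% (exact interval).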

Other observations

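Cells that stood apart in their NR4A reads are given with their marker reads. The 4 AGM cells with 0 NR4A reads (cells 9, 24, 33 and 42) had between 584998 and 1441346 reads, and each had reads of 5 to 7 of the 10 endothelial markers and 6 to 9 of the 10 haematopoietic markers. Their endothelial sums were 847.9, 907.7, 896.9 and 1367 CPM, below the median AGM cell (1652 CPM), and their haematopoietic sums 601.7, 2854, 1632 and 6312 CPM, the first being the lowest and the last the highest of the AGM cells. Fos was read in cell 9 (44 reads), and Egr1 was read in all 4. The yolk sac cell with 0 NR4A reads, cell 12, had reads of 3 endothelial and 5 haematopoietic markers, 1 Fos read and 0 Egr1 reads.

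The liver cells with the most NR4A reads had reads of most haematopoietic markers. E12.5 cell 2 (93 Nr4a1 reads) had reads of 9 of the 10 haematopoietic and 6 of the 10 endothelial markers, at 3342 and 1408 CPM summed. E14.5 cell 1 (91 Nr4a1 reads) had reads of 9 and 5 of them, at 4576 and 812.2 CPM.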
